A study of Mus musculus with 6 samples.

Results

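The Sox2-high cells of GL261-GSCs are 4045 of the 14893 deep cells of these cultures, and of 22868 deep cells in the whole series. A deep cell is a barcode with at least 8000 UMIs (unique molecular identifiers, each counted as 1 RNA molecule), at least 500 genes and under 10% mitochondrial UMIs. Members held at least 3 UMIs of Sox2, and they were compared with the 3862 Sox2-zero cells of the same libraries, which held none. Both classes were chosen by the measured Sox2 UMIs, so Sox2 itself is described and not tested. GL261 is an established mouse glioma line, labelled brain and glioblastoma cell, kept in a differentiation medium that contains FCS (fetal calf serum) and represented by 2 libraries. GL261-GSCs were derived from GL261, are labelled glioblastoma stem cell, were kept in a defined GSC medium and are represented by 4 libraries. No other treatment, genotype or time is named in the labels. Cells and neurospheres were dissociated with Accutase, lysed in a buffer with a non-ionic detergent and captured as cells or nuclei for 5' droplet sequencing, and the labels do not say which of the pair was loaded. They also do not say that the replicates are separate cultures, so that p-values measure the spread between these libraries, which may be technical.

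Sox2 is a transcription factor with a high mobility group domain that binds DNA together with partner factors and keeps neural stem and progenitor cells from differentiating. In gliomas it marks stem-like cells, and it works beside Olig2, Sox10 and Nes, markers of progenitors and of the oligodendrocyte lineage. Sox2 lies on chromosome 3 (chr3:34650405-34652461, plus strand, GRCm38) inside Sox2ot, a long RNA gene of the same strand (chr3:34104270-34682619), so that reads of the pair overlap and their counts are uncertain.

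The libraries held 80899005 to 121309232 UMIs in all, and 1785 to 4867 deep cells each. Between 0 and 11 barcodes per library exceeded the mitochondrial limit, and 0 had too few genes. Pairs of libraries shared 10 to 36 deep-cell barcodes, where an even draw of barcodes gives 8.72 to 30.6. Of the markers of other cells, Ptprc, C1qb, Tyrobp, Cd8a, Emcn and Cdh5 had 0 UMIs in all 8 class sums of GL261-GSCs, but other genes of the same lists were present. Flt1 had 196 to 865 UMIs per sum, Cd68 79 to 207, Col3a1 160 to 2097, and Pecam1 and Vwf up to 10 and 6. The summed level was 8.49 to 29.6 CPM for the microglial list, 53.1 to 77.6 CPM for the endothelial list and 0 to 0.543 CPM for the lymphocyte list, and their part in the results was not tested. Of the progenitor and lineage markers, Olig2, Sox10 and Nes each had a UMI in 80.8 to 99.2% of members and Sox2-zero cells at 8000 UMIs (free RNA alone would give 69.6 to 99.9%). No doublet caller was run.

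Members made up 20.2%, 30.5%, 29.6% and 25.8% of the deep cells of GL261-GSCs replicates 1 to 4, which were 729, 1414, 1442 and 460 cells. In GL261 the same rule took 13.7% and 11.3%. All 4 GL261-GSCs libraries were above both GL261 libraries, with means of 26.5% ± 4.67 (SD, n = 4) and 12.5% ± 1.67 (SD, n = 2). The counting error of each share was small, with exact (Clopper-Pearson) 95% intervals from 18.9 to 21.6% in replicate 1 and from 23.8 to 27.9% in replicate 4. Sox2-zero cells made up 34.9%, 22.9%, 22.05% and 26.4%. The remaining 44.9 to 48.3% of deep cells, those with 1 or 2 Sox2 UMIs, entered neither class.

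A member typically carried 4 Sox2 UMIs, the median in each of the 4 libraries, and the highest count was 26. Members held 56.9%, 66.5%, 64.3% and 60.5% of the Sox2 UMIs of their library's deep cells. Across all deep cells Sox2 stood at 83.9, 147, 142 and 148 CPM (UMIs scaled to a common total) in GL261-GSCs replicates 1 to 4 and at 63.7 and 62.4 CPM in GL261. Replicate 1 was the lowest of the GL261-GSCs libraries but still above both GL261 libraries. Just inside the threshold, cells with 3 Sox2 UMIs had 159, 211, 210 and 239 CPM of Sox2, and just outside it, cells with 2 had 113, 146, 144 and 165 CPM.

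**Figure D1:**
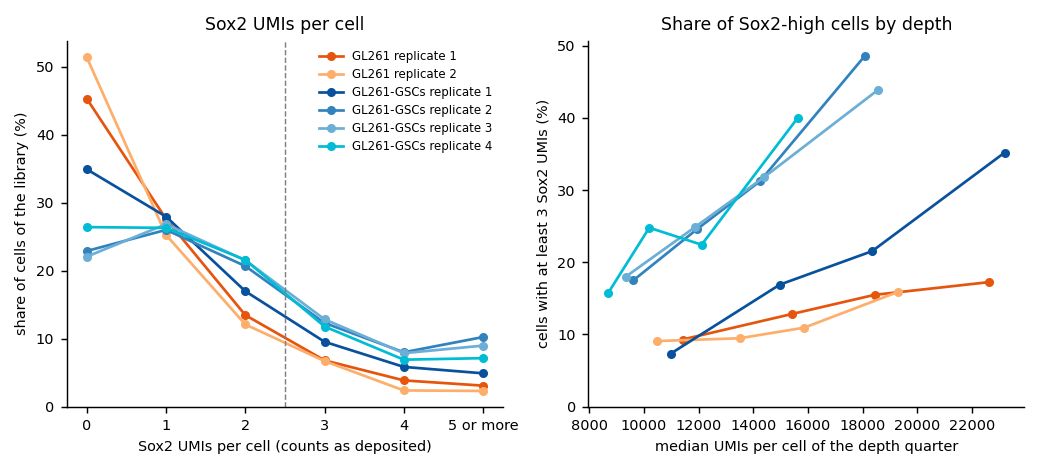
Left, the share of deep cells (%) with 0 to 5 or more Sox2 UMIs in each of the 6 libraries, 1 line per library, with the dashed line at the limit between Sox2-high cells and the rest; right, the share of Sox2-high cells (%) in each depth quartile of a library's cells, against that quartile's median UMIs per cell. In GL261-GSCs replicate 2 the share of Sox2-high cells was 17.5% in the shallowest quartile and 48.6% in the deepest.

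Membership moved with depth. Members had median totals of 19392, 14477.5, 14521.5 and 12085.5 UMIs, and Sox2-zero cells had 14770, 11877, 11647 and 10363, so members were deeper in every library, by 1.17 to 1.31 times. In replicate 1 the share of members was 7.33% in the shallowest quartile of cells and 35.2% in the deepest. Counted after every cell was thinned at random to 8000 UMIs, at least 3 Sox2 UMIs were found in 4.64%, 13.2%, 12.2% and 14.5% of GL261-GSCs cells and in 3.97% and 3.56% of GL261 cells. At this fixed depth replicates 2 to 4 remained above GL261, and replicate 1 lay close to it. The main results below are therefore also given with members and Sox2-zero cells matched on their total UMIs, which kept 612, 853, 864 and 351 cells of each class. Matched cells differed in their median totals by -38.9 UMIs ± 77.6 (SD, n = 4).

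Free RNA, taken from nearly empty barcodes (100 to below 1000 UMIs), held Sox2 at 41.7, 71.3, 70.4 and 78.8 CPM in GL261-GSCs. A barcode filled with free RNA alone would hold at least 3 Sox2 UMIs in 0.483 to 2.63% of cases at 8000 UMIs, and in 4.87 to 8.63% at the members' median depth. No cell type without Sox2 was present in these libraries to give a measured background. Across cells at 8000 UMIs, the variance of Sox2 was 1.299 to 1.445 times its mean in GL261-GSCs, where counting alone gives about 1. That was above 80.8 to 91.0% of the genes with a like mean. Counting alone at the same mean would put 2.85%, 11.2%, 10.7% and 11.99% of cells at 3 or more, which is below the measured share in each library. The members are thus the upper end of a continuous range of counts, with no gap at the threshold.

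Members had more members among their nearest neighbours, by the expression of all other genes, than Sox2-zero cells had. The shares around members were 46.2%, 62.9%, 61.1% and 52.8% in replicates 1 to 4, and those around Sox2-zero cells 31.8%, 52.5%, 50.7% and 46.4%. Members made up 36.7%, 57.1%, 57.3% and 49.4% of the cells compared, so each library's overall share lay between the pair, and in replicate 1 most neighbours of a member were Sox2-zero cells. Among the 30 nearest neighbours of a member, 55.8% ± 7.72 (SD, n = 4) were members, against 45.3% ± 9.41 around a Sox2-zero cell. The difference was 10.4 percentage points ± 3.30 (SD, n = 4), higher in 4 of 4 libraries, and 7.68 ± 1.24 after matching on total UMIs. Both have an exact sign-flip permutation p of 0.13 (2-sided), the smallest that 4 libraries can give. The classes were mixed among each other, with members found around both.

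Differences in other genes were small. Higher in members were, among others, the secreted proteins Igf1, Thbs2, Wnt4 and Sema3a, the transcription factor Sall3 and the zinc transporter Slc30a4. Lower were the interferon-induced Rsad2 and Isg15, the stress cytokine Gdf15, the lysosomal protease Ctsl and 7 of 20 chaperones of the endoplasmic reticulum. Of 12694 genes tested, 217 (1.71%) passed an adjusted p of 0.05 in the edgeR quasi-likelihood test over the 4 libraries, 113 (0.89%) higher and 104 (0.819%) lower. Scaling by library size in place of TMM moved this split to 84 higher and 124 lower, with the median of all genes at -0.01 on the log2 scale. After matching, 409 of 12074 genes (3.39%) passed, 192 (1.59%) higher and 217 (1.8%) lower, and 108 genes passed in both. Only 3 of the 217 differed by 2-fold or more (Spp1, Cox6a2 and 9130015A21Rik), and the median size among the 217 was 0.26 on the log2 scale. Of the 217, 199 had 1 direction in all 4 libraries, where 20.8% of all genes tested did. The test on these libraries favours genes with like ratios, so this agreement is no separate support. The largest rises and falls named below were also chosen for 1 direction in all 4 libraries. The count fell to 100 without replicate 2 and to 107 without replicate 3.

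Slc30a4 rose by a like amount in each library. It carries zinc out of the cytosol into vesicles (ENSMUSG00000005802.12, chr2:122681233-122702663). It stood at 299, 259, 234 and 181 CPM in members of replicates 1 to 4, against 242, 201, 178 and 145 CPM in Sox2-zero cells. The fitted log2 fold change was 0.37 ± 0.04 (SE; adjusted p = 2.4e-06 by edgeR), and 0.37 after matching. Cells with 1 and with 2 Sox2 UMIs, which entered no test, lay between the classes in each library, at 252 and 277 CPM in replicate 1 and at 155 and 164 CPM in replicate 4. At 8000 UMIs, 75.4%, 71.4%, 73.3% and 60.0% of members held a Slc30a4 UMI, against 68.9%, 64.0%, 62.1% and 55.2% of Sox2-zero cells. Free RNA alone would put a UMI in 86.1 to 94.6% of barcodes at that depth, above the shares of both classes, and its part in the difference was not tested.

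Thbs2 encodes thrombospondin 2, a matrix protein that restrains vessel growth (ENSMUSG00000023885.9, chr17:14665500-14694235). It stood at 70.5, 90.0, 69.3 and 69.8 CPM in members and at 60.9, 59.4, 40.4 and 36.9 CPM in Sox2-zero cells. Members were higher in 4 of 4 libraries, least so in replicate 1, with a fitted log2 fold change of 0.60 ± 0.07 (adjusted p = 1.0e-06 by edgeR) and 0.74 after matching. Its UMIs were unevenly spread, since the 1% of cells with most of them held 19.4%, 32.7%, 32.6% and 36.9%. In thinned cells, 28.5%, 22.8%, 20.5% and 19.6% of members held a Thbs2 UMI, against 24.5%, 20.9%, 17.1% and 17.8% of Sox2-zero cells. Free RNA alone would give 21.7%, 32.1%, 28.9% and 34.8%, above both classes in replicates 2 to 4 and below both in replicate 1. The part of free RNA in the difference was not tested.

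Igf1, the growth factor insulin-like growth factor 1, had the largest fitted rise among the genes with an average log2 CPM over 4 and 1 direction in all 4 libraries (ENSMUSG00000020053.18, chr10:87858265-87937042). Members held 82.0, 10.5, 16.3 and 10.3 CPM in replicates 1 to 4 and Sox2-zero cells 48.1, 7.54, 13.05 and 6.90 CPM. Most of its UMIs came from replicate 1, where 31.1% of members and 21.6% of Sox2-zero cells held one, both below the 41.8% that free RNA would give. The 1% of cells with most Igf1 UMIs held 17.0%, 47.0%, 43.7% and 48.4% of them in replicates 1 to 4. The fitted log2 fold change was 0.65 ± 0.09 (adjusted p = 4.0e-05 by edgeR) and fell to 0.41 without replicate 1, where it no longer passed (adjusted p = 0.132).

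Wnt4, a secreted Wnt ligand, stood at 21.1, 26.3, 16.9 and 10.9 CPM in members against 11.04, 17.8, 12.8 and 10.1 CPM. The difference was large in replicate 1 and near 0 in replicate 4, and the fitted log2 fold change was 0.58 ± 0.10 (adjusted p = 0.00088 by edgeR), and 0.49 after matching. The call of Wnt4 was lost with Sox2 counted after thinning and a limit of 2 UMIs. Sema3a, a secreted guidance cue that repels axons, showed the opposite order among libraries, with 20.2, 23.7, 83.7 and 87.0 CPM in members against 18.1, 20.5, 58.7 and 49.6 CPM. Its fitted value was 0.48 ± 0.07 (adjusted p = 0.00014 by edgeR), and 0.37 after matching. Sall3, a zinc finger transcription factor of the spalt family, had 45.4, 62.3, 48.2 and 41.8 CPM in members against 34.5, 49.95, 31.3 and 27.6 CPM. At 0.47 ± 0.07 (adjusted p = 4.0e-05 by edgeR) it kept its size after matching (0.46), and cells with 1 or 2 Sox2 UMIs lay between the classes in each library, at 40.8 and 41.9 CPM in replicate 1 and at 33.0 and 33.8 CPM in replicate 4.

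The other 6 of the 12 largest rises were Polr2l (0.44), a small subunit of RNA polymerase II, the metallothionein Mt3 (0.41), the histone methyltransferase Kmt2d (0.40), Tpm3-rs7 (0.39), Kctd3 (0.38) and the ion exchanger Slc24a5 (0.37). Tpm3-rs7 is named as a related sequence of Tpm3, so its reads may be shared with that gene and its value is uncertain. Its call was lost without replicate 1, 2 or 3 (adjusted p up to 0.106 by edgeR). Tpm3-rs7 and Slc24a5 no longer passed after matching (adjusted p = 0.253 and 0.259 by edgeR), Polr2l was at 0.73, and Mt3 was at 0.23.

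**Figure D2:**
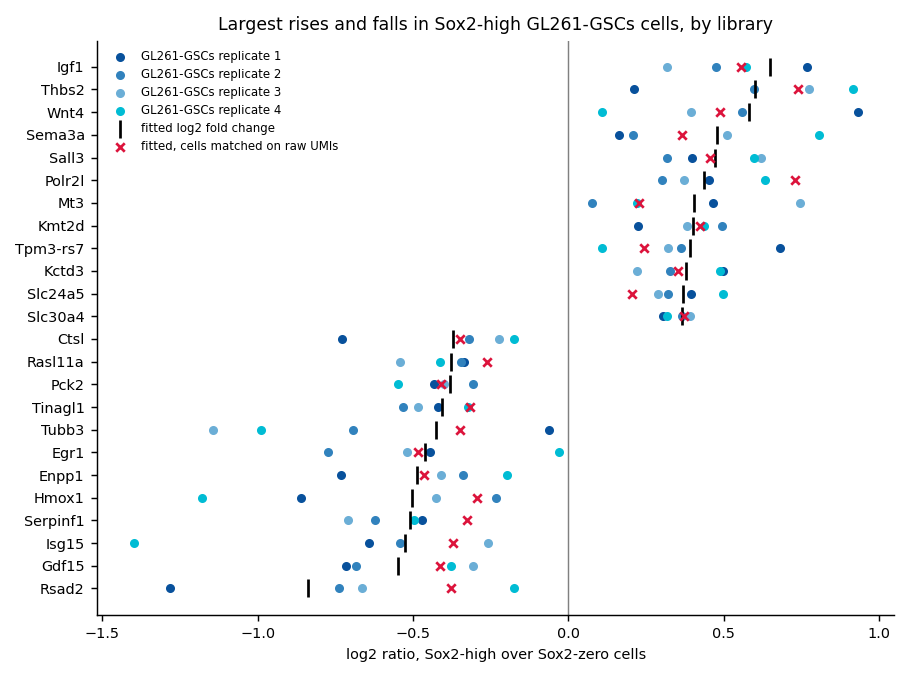
The log2 ratio of Sox2-high over Sox2-zero cells for the 12 largest rises and the 12 largest falls, 1 row per gene; the 4 blue points are the GL261-GSCs libraries, the black bar is the fitted log2 fold change, and the red cross is the fitted value with cells matched on total UMIs. Slc30a4 has the tightest points, and those of Rsad2, Isg15, Hmox1 and Tubb3 are widely spread.

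Among the falls, Rsad2 encodes viperin, an interferon-induced enzyme that blocks virus growth (ENSMUSG00000020641.16, chr12:26442746-26456452). It stood at 30.7, 21.0, 17.9 and 15.5 CPM in members and at 74.9, 35.0, 28.4 and 17.5 CPM in Sox2-zero cells, lower in 4 of 4 libraries and most in replicate 1. The fitted log2 fold change was -0.84 ± 0.09 (adjusted p = 6.6e-07 by edgeR) and -0.38 after matching (adjusted p = 0.018 by edgeR). The share of cells with a UMI hardly differed, at 12.5%, 7.14%, 7.84% and 9.57% of members against 13.8%, 8.01%, 8.67% and 8.28%, all below what free RNA would give (9.76 to 22.6%). The 1% of cells with most Rsad2 UMIs, taken over both classes together, held 59.5%, 62.2%, 53.4% and 31.7% of them. Few cells thus carried many of the UMIs, and the fall without those cells was not tested. The call of Rsad2 was lost with Sox2 counted after thinning and a limit of 2 UMIs. Isg15, a ubiquitin-like protein induced by interferon, had 61.2, 41.7, 42.0 and 11.7 CPM in members against 95.6, 60.7, 50.3 and 31.1 CPM (ENSMUSG00000035692.6, chr4:156199424-156200818). It was lower in 4 of 4 libraries, at -0.53 ± 0.07 (adjusted p = 5.1e-05 by edgeR) and -0.37 after matching. In thinned cells, 7.61 to 25.7% of members and 10.8 to 27.8% of Sox2-zero cells held an Isg15 UMI. Free RNA alone would give 15.4 to 44.4%, above both classes in each library, and its part in the fall was not tested.

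Ctsl encodes cathepsin L, a lysosomal protease (ENSMUSG00000021477.9, chr13:64359337-64370890). It stood at 676, 368, 210 and 214 CPM in members and at 1120, 458, 245 and 242 CPM in Sox2-zero cells, lower in each library, at -0.37 ± 0.05 (adjusted p = 7.0e-05 by edgeR) and -0.35 after matching. In thinned cells, 68.0 to 95.1% of members and 74.2 to 97.2% of Sox2-zero cells held a Ctsl UMI. Free RNA alone would give 87.6 to 99.9%, above both classes in each library, and its part in the fall was not tested. Cells with 1 or 2 Sox2 UMIs lay between the classes in each library, at 887 and 756 CPM in replicate 1. Of the 24 largest rises and falls, 5 had such in-between values in all 4 libraries (Slc30a4, Sall3, Ctsl, Pck2 and Rasl11a). The others did not, and Igf1 had them in 0 libraries. Gdf15, a cytokine released under cell stress, fell by 0.55 and Pck2, a mitochondrial enzyme of the serine and gluconeogenesis routes, fell by 0.38 on the log2 scale. The remaining falls among the 12 largest were Serpinf1, Hmox1, Enpp1, Egr1, Tubb3, Tinagl1 and Rasl11a, from -0.51 to -0.38. The Tubb3 value ran from -0.78 to -0.24 with 1 library left out. After matching, Serpinf1, Hmox1, Tubb3, Tinagl1 and Rasl11a no longer passed (adjusted p = 0.136, 0.119, 0.081, 0.135 and 0.075 by edgeR), and Enpp1 and Egr1 did. Left-out libraries ended other calls: Hmox1, Enpp1 and Tinagl1 without replicate 1, Gdf15, Serpinf1 and Tubb3 without replicate 2, and Tubb3 and Tinagl1 without replicate 3, with adjusted p up to 0.107, 0.227, 0.107, 0.087, 0.076 and 0.535 for Hmox1, Enpp1, Tinagl1, Gdf15, Serpinf1 and Tubb3. Spp1, the matrix protein osteopontin, had the smallest p of the mesenchymal list (-1.10 ± 0.17, adjusted p = 0.00016 by edgeR). It was at 11.1, 4.24, 11.8 and 4.62 CPM in members against 20.3, 21.1, 19.1 and 2.65 CPM, so replicate 4 went the other way. Without replicate 2 the value was -0.64, and after matching it was -1.37, and the top 1% of cells held 74.0 to 92.1% of its UMIs. Of the 15 mesenchymal genes tested, 2 fell and none rose, beside 0.819% of all genes that fell and 0.89% that rose. The other to fall was Sparc, a matrix glycoprotein, at -0.27, which did not pass after matching (-0.06). After matching Spp1 and Tagln2 fell and Lgals3 rose (0.28, adjusted p = 0.0032 by edgeR), beside 1.8% and 1.59% of all genes.

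Chaperones and foldases of the endoplasmic reticulum fold newly made secreted and membrane proteins, and 7 of 20 fell in members. This list was added after values had been seen and supports nothing by itself. Of its 20 genes, all tested, 7 fell and none rose (edgeR, adjusted over all genes), beside 0.819% of all genes that fell, and the median log2 fold change was -0.16, against 0.0014 over all genes tested. After matching 9 fell (beside 1.8% of all genes), 6 of them among the 7, with a median of -0.17. With 1 library left out, 5 to 7 fell. Hspa5, the chaperone BiP (ENSMUSG00000026864.13, chr2:34771970-34777547), stood at 666, 788, 724 and 554 CPM in members and at 976, 887, 824 and 710 CPM in Sox2-zero cells. It was lower in each library, at -0.30 ± 0.05 (adjusted p = 0.00018 by edgeR) and -0.26 after matching. Hsp90b1, the chaperone GRP94, stood at 1325, 1408, 1399 and 1250 CPM in members and at 1741, 1565, 1634 and 1423 CPM in Sox2-zero cells (-0.22 ± 0.04, adjusted p = 0.0020 by edgeR). Pdia3, Pdia4 and Pdia6, disulfide isomerases that form and rearrange disulfide bonds, fell by 0.31, 0.26 and 0.26 on the log2 scale. Ero1l, the oxidase that recharges them, fell by 0.21 and passed only unmatched, and Canx, the lectin chaperone calnexin, fell by 0.21.

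Many promoters of such chaperones hold an endoplasmic reticulum stress element, the site read by ATF6 with NF-Y. The motif searched was CCAAT, any 9 bases, then CCACG, on both strands, in RefSeq promoters of GRCm38.p6 (250 bases before to 50 after the start). Of the 7 chaperones that fell, 6 matched a promoter, and 4 of the 6 held it (Hspa5, Hsp90b1, Pdia6 and Canx). It was in 0.181% of the tested genes that matched a promoter, and in 0.119% of all 32851 promoters. Chaperones of the list that did not fall were not counted, so the excess is not tied to the fall. A match is a description of letters, not of binding. The promoters of Hspa5 (chr2:34771840-34772139, plus strand), Hsp90b1 (chr10:86705395-86705694, minus strand, with 2 matches, the downstream one on the other strand) and Pdia6 (chr12:17266339-17266638, plus strand) are shown 5' to 3' with the motif in capitals.
Hspa5: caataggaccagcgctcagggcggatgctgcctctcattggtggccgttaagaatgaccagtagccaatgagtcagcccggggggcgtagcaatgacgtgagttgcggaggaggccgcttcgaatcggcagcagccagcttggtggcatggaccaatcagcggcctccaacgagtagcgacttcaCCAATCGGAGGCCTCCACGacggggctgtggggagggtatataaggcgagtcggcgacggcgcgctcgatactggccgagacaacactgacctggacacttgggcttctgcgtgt
Hsp90b1: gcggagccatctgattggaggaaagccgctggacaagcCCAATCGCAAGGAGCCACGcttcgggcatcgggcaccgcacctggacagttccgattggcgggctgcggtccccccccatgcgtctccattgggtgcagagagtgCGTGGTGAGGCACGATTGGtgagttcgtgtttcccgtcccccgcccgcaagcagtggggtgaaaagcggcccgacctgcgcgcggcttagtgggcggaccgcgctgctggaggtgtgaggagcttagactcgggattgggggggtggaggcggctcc
Pdia6: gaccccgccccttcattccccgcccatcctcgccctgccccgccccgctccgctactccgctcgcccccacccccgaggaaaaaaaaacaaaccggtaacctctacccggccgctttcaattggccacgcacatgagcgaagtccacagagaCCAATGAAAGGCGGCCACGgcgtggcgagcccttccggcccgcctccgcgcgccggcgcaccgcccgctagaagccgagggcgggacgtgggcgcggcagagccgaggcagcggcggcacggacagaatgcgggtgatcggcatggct

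Interferon-induced and MHC class I genes, which serve defence against viruses and antigen display, were tested as a list. Of 18 tested, 4 fell and none rose, beside 0.819% of all genes that fell (1.8% after matching), with a median of -0.16 and a negative value in 16; 3 of the 4 fell after matching too, where 4 fell and the median was -0.05. H2-D1 and H2-K1, heavy chains of MHC class I, were at -0.37 and -0.32, and Ifit1 at -0.87 with few UMIs. H2-D1 and H2-K1 are close relatives, so reads may be shared between them. The interferon response element, searched as GAAA, any 2 bases, then GAAA on both strands, was in 3.44% of all promoters of this length, 2.81% of those of genes tested and 6.59% of those of genes that fell. Of the 4 genes of this list that fell, Isg15 and Ifit1 held it, and H2-D1 and H2-K1 did not. Shown are the promoters of Isg15 (chr4:156200769-156201068, minus strand, 3 overlapping matches) and of Rsad2 (chr12:26456403-26456702, minus strand, motif on the other strand), with the motif in capitals. Rsad2 is not a member of the list, and both genes are shown because they were among the 12 largest falls.
Isg15: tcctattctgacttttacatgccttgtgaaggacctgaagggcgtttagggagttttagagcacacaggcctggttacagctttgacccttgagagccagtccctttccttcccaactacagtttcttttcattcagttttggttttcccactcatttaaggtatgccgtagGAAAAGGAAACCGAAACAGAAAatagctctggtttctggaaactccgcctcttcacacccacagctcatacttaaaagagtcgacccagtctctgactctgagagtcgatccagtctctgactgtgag
Rsad2: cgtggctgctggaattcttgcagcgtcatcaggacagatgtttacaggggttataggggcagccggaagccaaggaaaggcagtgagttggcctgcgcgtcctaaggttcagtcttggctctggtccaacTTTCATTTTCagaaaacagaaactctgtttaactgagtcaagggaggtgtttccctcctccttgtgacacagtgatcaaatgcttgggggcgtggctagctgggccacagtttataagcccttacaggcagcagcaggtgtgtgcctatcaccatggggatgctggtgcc
ACAATG, a core of Sox binding sites, was in 14.2% of the promoters of genes that rose, 6.59% of those that fell, 7.38% of those of all genes tested and 12.6% of all promoters, a description with no test.

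Genes of the oligodendrocyte lineage, the lineage to which the stem cell factors Olig2 and Sox10 belong, had mostly positive values in 3 of the 4 libraries. The median log2 fold change of the 9 myelin genes tested was 0.16, and 0.27 after matching. Of these genes 2 rose, 5 rose after matching, and none fell in either fit. Among all genes 0.89% rose and 0.819% fell, and 1.59% and 1.8% after matching. The median log2 ratio of the myelin genes was -0.09 in replicate 1, against 0.14, 0.12 and 0.18 in replicates 2 to 4. With 1 library left out 0 to 3 of them rose. Opalin, a myelin membrane protein, stood at 40.3, 69.9, 28.7 and 24.2 CPM in members against 33.6, 63.4, 20.5 and 22.03 CPM, higher in 4 of 4 libraries. It rose by 0.26 (adjusted p = 0.041 by edgeR) and by 0.27 after matching (adjusted p = 0.049), and Bcas1, Myrf and Mbp passed only after matching (0.31, 0.36 and 0.38).

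Of 16 oligodendrocyte precursor genes tested, with a median of 0.08, 1 rose and none fell, beside 0.89% and 0.819% of all genes. After matching, with a median of 0.16, 5 rose, beside 1.59% of all genes. By library the medians were -0.07 in replicate 1 and 0.11, 0.03 and 0.13 in replicates 2 to 4. The riser was Lhfpl3, a membrane protein of precursors, at 87.8, 200, 120 and 135 CPM in members against 74.4, 175, 116 and 110 CPM (0.19 ± 0.05, adjusted p = 0.031 by edgeR). Its call was lost without replicate 1, 2 or 4 (adjusted p up to 0.155), and matched it was 0.35. Olig2 stood at 409, 441, 829.3 and 726 CPM in members and at 408, 412, 776 and 682 CPM in Sox2-zero cells, a log2 difference of 0.09 ± 0.04 that did not pass (adjusted p = 0.319 by edgeR). Sox10, the factor of the whole lineage, was at 0.09 ± 0.04 (adjusted p = 0.325) and passed after matching at 0.16 (adjusted p = 0.010 by edgeR). Olig1 was at -0.05 and Pdgfra, the growth factor receptor of precursors, at 0.07, and neither passed.

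Stem cell genes other than Sox2 differed little. Of 13 neural stem and progenitor genes tested none rose and 1 fell (1 rose and none fell after matching), Id3, an inhibitor of differentiation factors. Against the counts here and for the Sox and POU factors below, 0.89% of all genes rose and 0.819% fell, and 1.59% and 1.8% after matching. Id3 was at 42.4, 51.8, 21.4 and 29.6 CPM in members against 68.1, 77.4, 20.7 and 36.4 CPM (-0.44 ± 0.08, adjusted p = 0.00057 by edgeR), lower in 3 of 4 libraries. It did not pass without replicate 2 (adjusted p up to 0.071) or after matching (-0.18, adjusted p = 0.232). Nes, the filament protein nestin, stood at 470, 591, 323 and 324 CPM in members and at 502, 569, 313 and 287 CPM in Sox2-zero cells (0.05 ± 0.04, adjusted p = 0.643 by edgeR). Fabp7, a fatty acid binding protein of radial glia, was at -0.07 and did not pass. Among 9 Sox and POU factors tested none passed, and 2 rose after matching. Sox4 came nearest (0.16 ± 0.04, adjusted p = 0.060) and passed after matching at 0.30 (adjusted p = 7.6e-06 by edgeR). Sox2ot, whose reads overlap those of Sox2, was at 0.14 ± 0.08 (adjusted p = 0.442 by edgeR), and Sox9 and Sox11 had too few UMIs to be tested.

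Early response genes are switched on within minutes of a growth or stress signal. Beside the counts of this and the next lists, 0.819% of all genes fell and 0.89% rose, and 1.8% and 1.59% after matching. Of 14 tested, 5 fell and 1 rose, with a median of -0.15, and 3 fell and 1 rose after matching, with a median of -0.04. Egr1, Ier3, Ier2, Btg2 and Junb were at -0.46, -0.31, -0.26, -0.26 and -0.24, while Jun was at 0.18. Of 21 sterol synthesis genes 3 fell (Msmo1, Nsdhl and Dhcr7) and 20 had a negative value, with a median of -0.10, and 1 to 4 fell with 1 library left out. After matching Msmo1 and Ebp fell, and Nsdhl and Dhcr7 did not pass (adjusted p = 0.112 and 0.818 by edgeR). Among ATF4 targets, the genes of amino acid supply under stress, the amino acid transporter subunit Slc3a2 fell by 0.28 on the log2 scale. Of 18 tested, 2 fell (Slc3a2 and Ddit3) and 1 rose (Slc7a11), and only Slc3a2 also passed after matching. There Asns, Shmt2 and Slc7a5 fell as well and Nupr1 rose (0.64), while Ddit3 and Slc7a11 did not pass (adjusted p = 0.253 and 0.243 by edgeR). Of the other lists, 0 genes passed among 4 pluripotency, 8 astrocyte, 12 Notch, 6 Hedgehog, 14 p53, 3 nuclear RNA, 1 microglial, 1 endothelial and 3 pericyte genes tested, and no lymphocyte gene could be tested. After matching 1 gene rose in the pluripotency (Myc), astrocyte (S100b), Notch (Notch1) and pericyte (Col3a1) lists, at 0.17, 0.23, 0.23 and 0.29, and in the neuronal (Map2) and hypoxia (Mxi1) lists, at 0.18 and 0.27. In the neuronal list 1 of 4 fell (Tubb3), in the hypoxia list 1 of 16 fell (Slc2a1), and in the ERK output list 1 of 14 rose (Spry2) and 1 fell (Spry4). After matching Spry2, Spry4 and also Etv4 passed, and Slc2a1 (-0.06, adjusted p = 0.633 by edgeR) did not. Slc2a1 lost its call without replicate 2, 3 or 4 and Spry4 without replicate 1 or 2 (adjusted p up to 0.234 and 0.183 by edgeR).

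Some shifts moved with the depth of the cells. Of 80 ribosomal protein genes tested, 5 rose (Rpl23a, Rpl13a, Rps20, Rpl12 and Rps15) and 74 had a positive value, with a median of 0.07. The count ran from 1 to 10 with 1 library left out, and the median log2 ratio was 0.14 in replicate 1 and 0.03, 0.05 and 0.03 in replicates 2 to 4. After matching none passed, and the median was 0.00088. Their share of all UMIs was 17.9% in members and 17.0% in Sox2-zero cells, 0.822 percentage points ± 0.594 (SD, n = 4) apart, and 0.322 ± 0.312 apart after matching. Of 14 mitochondrially encoded genes 3 fell (mt-Rnr2, mt-Atp8 and mt-Nd6), and the first 2 of these fell after matching. The median log2 ratio of the list was -0.34 in replicate 1 and -0.02, -0.06 and 0.06 in replicates 2 to 4. In replicate 4, mt-Nd6 was at 137 CPM in members and 132 CPM in Sox2-zero cells. The median mitochondrial share of a cell's UMIs, averaged over libraries, was 1.09% in members and 1.04% in Sox2-zero cells, higher in 3 of 4 libraries. The role of depth in these shifts was not tested beyond the matched fit. On chromosome 3, which carries Sox2, 8 of 621 genes tested rose and none fell, beside 0.89% of all genes that rose. With 1 library left out 1 to 10 rose, and after matching 6 rose and 4 fell. The median was 0.03 in both fits. Within 10 Mb of Sox2, 1 of 66 genes rose, Dnajc19 (0.19), with a median of 0.03; it lost its call after matching and without replicate 1, 2 or 3 (adjusted p up to 0.107 by edgeR).

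**Figure D3:**
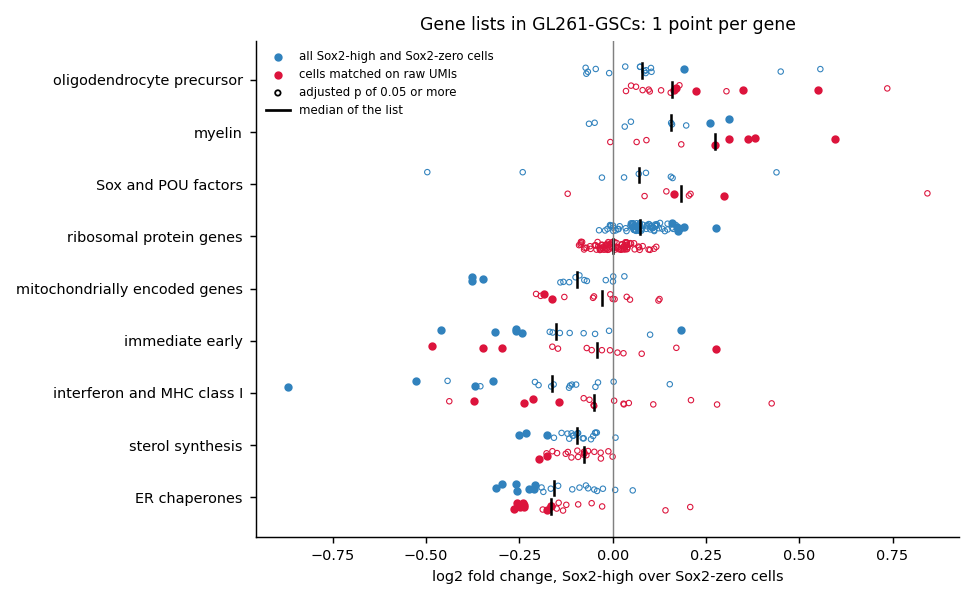
The log2 fold change of Sox2-high over Sox2-zero cells for each tested gene of 9 lists, 1 point per gene, with all cells in blue and cells matched on total UMIs in red; filled points passed an adjusted p of 0.05, open points did not, and the black bar is the list's median. The ribosomal median is 0.07 in blue and 0.00088 in red, and that of the endoplasmic reticulum chaperones is -0.16 and -0.17.

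The difference between Sox2 classes in genes of the G2 and M phases was not the same in GL261-GSCs and GL261, while the levels of the cultures overlapped. Genes of the G2 and M phases, which build the spindle and divide the cell, took 0.728% of UMIs in members and 0.713% in Sox2-zero cells of GL261-GSCs. The difference was 0.0147 percentage points ± 0.0739 (SD, n = 4; exact sign-flip permutation p = 0.75, 2-sided), higher in 3 of 4 libraries. In GL261 the Sox2-high cells were at 0.853 and 0.954% and the Sox2-zero cells at 0.576 and 0.674%. Over the 52 genes of the list the median log2 fold change was 0.05 in GL261-GSCs, where 3 rose (Rangap1, Ncapd2 and Ube2c, with 0 to 6 rising when 1 library was left out), and 0.55 in GL261. In GL261-GSCs cells low in cycle genes the median was 0.21, but these cells were chosen by such genes, so the value is no test. Rangap1 lost its call without replicate 1, 2 or 3 (adjusted p up to 0.278 by edgeR), and none of the list rose after matching, where 5 fell. Among all genes 0.89% rose and 0.819% fell, and 1.59% and 1.8% after matching. For 39 of the 52 the effect was lower in GL261-GSCs than in GL261 by the edgeR test of the difference, against 253 genes lower of 12502 tested, 3.31% of which differed in either direction. At matched depth 40 were lower, and the medians were -0.11 and 0.44. Mki67, a protein of dividing cells, stood at 226, 247, 289 and 230 CPM in members of GL261-GSCs and at 229, 206, 295 and 245 CPM in Sox2-zero cells, against 369 and 450 CPM in Sox2-high and 231 and 274 CPM in Sox2-zero cells of GL261. The classes overlapped in GL261-GSCs and did not in GL261, and the difference of effects was -0.62 (adjusted p = 7.4e-07 by edgeR).

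Genes of DNA replication, active in S phase, took 0.283% of UMIs in members and 0.297% in Sox2-zero cells, lower in 4 of 4 libraries (exact sign-flip permutation p = 0.13, the smallest possible). Of 37 tested, 1 fell, the histone mRNA binding protein Slbp (-0.17, lost without replicate 1, 2 or 3, adjusted p up to 0.289), and after matching 9 fell. Among all genes 0.819% fell, and 1.8% after matching.

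**Figure D4:**
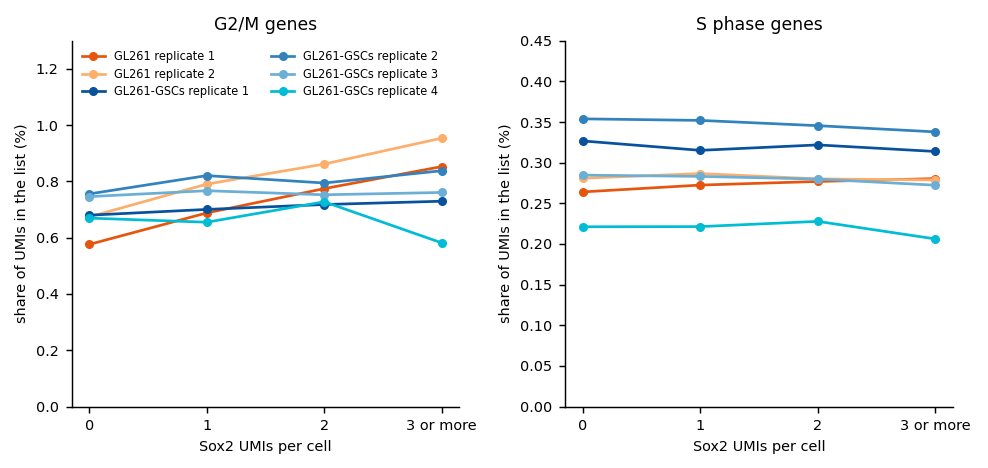
The share of UMIs (%) from genes of the G2 and M phases (left) and from S phase genes (right) in cells with 0, 1, 2 and 3 or more Sox2 UMIs, each cell thinned to 8000 UMIs, 1 line per library. In both GL261 libraries (orange) the G2 and M share climbs, from 0.576 to 0.853% and from 0.674 to 0.954%, while in GL261-GSCs it goes from 0.680 to 0.730%, 0.756 to 0.838%, 0.746 to 0.761% and 0.670 to 0.582% in replicates 1 to 4.

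The same rule was applied to GL261, where 1229 of 12356 genes passed in a fit of its own 2 libraries, and 567 of 11072 after matching. Of 12502 genes tested over all 6 libraries, 414 (3.31%) had an effect of Sox2 class that differed between GL261-GSCs and GL261, 161 higher and 253 lower in GL261-GSCs. Scaling by library size gave 131 higher and 340 lower, with the median of all genes moved to -0.04. Leaving out GL261 replicate 1 or 2 reduced the count to 129 or 158, fits that take the spread of the single GL261 library from GL261-GSCs, and matching gave 407. Thbs2 stood at 15.1 and 5.65 CPM in Sox2-high and at 19.0 and 11.1 CPM in Sox2-zero cells of GL261. It was lower there (-0.55) and higher in GL261-GSCs (0.60), a difference of 1.15 ± 0.20 (adjusted p = 0.00024 by edgeR). Timp3, an inhibitor of matrix proteases, was at 257, 252, 226 and 245 CPM in members of GL261-GSCs and at 247, 224, 197 and 203 CPM in Sox2-zero cells, against 1371 and 2217 CPM in Sox2-high and 2671 and 3634 CPM in Sox2-zero cells of GL261 (1.04 ± 0.07, adjusted p = 5.9e-13). Cited2, a coactivator binding protein, was 0.34 higher in members of GL261-GSCs and at -0.60 in GL261 (0.95 ± 0.08, adjusted p = 4.1e-11). Id2, like Id3 an inhibitor of differentiation factors, was at 0.0035 in GL261-GSCs and 0.92 in GL261 (-0.91 ± 0.08, adjusted p = 2.4e-10 by edgeR). Timp3, Cited2 and Id2 were among the 5 largest differences in each direction at an average log2 CPM of at least 6, a choice made after values were seen. Nes was at 0.05 in GL261-GSCs and at -0.35 in GL261 (difference 0.41, adjusted p = 9.0e-05 by edgeR). Of the mesenchymal list, 7 of 15 genes had a higher and 1 a lower effect in GL261-GSCs, with medians of 0.0089 and -0.28. Slc30a4 was higher with Sox2 in both cultures, at 0.37 and 0.40, with a difference of -0.03 ± 0.13 (adjusted p = 0.965 by edgeR), although its level in GL261 was 13.5 to 21.4 CPM. Other named genes had the same sign in GL261 too, among them Sall3 (0.80), Slc24a5 (0.50), Ctsl (-0.32), Gdf15 (-0.60), Pck2 (-0.33), Hmox1 (-0.44) and Msmo1 (-0.31). Their difference did not pass (adjusted p = 0.222 to 0.932 by edgeR). Igf1, Mt3 and Rasl11a had the opposite sign there (-0.06, -0.27 and 0.34), and their difference did not pass either. Named genes whose difference passed are given below.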

How the data were processed

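Raw UMI counts per gene and barcode, deposited by the authors as unfiltered matrices, come from Cell Ranger 4 (per the file headers) and build mm10 (per the submitters' processing notes). The sources used here give no aligner settings. Of 54446 gene identifiers, 54409 matched GENCODE M21 (GRCm38) without version, and coordinates come from it. Strand settings of the counting are not given either, so reads of overlapping genes cannot be told apart.

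Each deep cell was thinned without replacement to 8000 UMIs of all genes but Sox2, and counts were summed per library and class, giving 3680000 to 11536000 UMIs per sum in GL261-GSCs. The 8 sums were compared with the edgeR 4.0.16 quasi-likelihood test in R 4.3.3 (TMM, filterByExpr, library as block, Benjamini-Hochberg, 2-sided), and a fit over all 6 libraries tested the difference from GL261. The library is the block because both classes come from the same capture. The SE follows from the log2 fold change and its F value, and can look too precise for genes whose UMIs sit in few cells. CPM are UMIs scaled by the total of a sum, and precision is limited by 4 libraries. Intervals and floors cover counting error only. Neighbours used 20 principal components of 2000 variable genes without Sox2 (scikit-learn 1.9.0), among members and Sox2-zero cells of a library. Exact tests used sign flips over libraries. DESeq2 1.42.0, limma 3.58.1 and other alternatives are given in the closing section. The tests were tested on simulated data first.

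Named genes were the 12 largest rises and 12 largest falls among called genes of average log2 CPM 4 or more that had 1 direction in all 4 libraries (predicted and mt- genes left out), fixed genes (Sox2, Sox2ot, Olig1, Olig2, Nes, Pdgfra, Sox4, Sox9, Sox10, Sox11, Fabp7, Mki67 and Top2a) and the smallest p of each list. Some items are not reported here. Cox6a2, other list members, Timp3, Cited2 and Id2 were named after values were seen. Members, lists and the rule were chosen with earlier results of these data known. Lists not described further had at most 1 called gene in each direction: pluripotency, astrocyte, neuronal, Notch, Hedgehog, ERK output, hypoxia, p53, nuclear RNA, microglia, endothelial, pericyte and lymphocyte.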

Additional observations from a re-analysis of the deposited data

Results flagged for a closer look

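Among 65 sets of 4 GL261-GSCs libraries tested for a library far from the others, 6 held one, each time replicate 1 as the lowest, where chance marks about 1 in 20 sets. The sets are not independent, since several measure the same Sox2 level, so their count is no test against that rate. Replicate 1 had the lowest Sox2 level of deep cells (83.9 CPM), and the lowest shares of cells with at least 1 (43.5%) and at least 2 (14.96%) Sox2 UMIs at 8000 UMIs per cell. Its log2 ratio was also the lowest for Olig2 (0.0039), for the nuclear RNA Malat1 (-0.36) and for the mitochondrial ribosomal RNA mt-Rnr2 (-0.70).

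The effect of Sox2 class differed between the cultures for 11 named genes by the edgeR test of the difference (adjusted p under 0.05). It was higher in GL261-GSCs for Thbs2 (1.15), Polr2l (0.42) and Nes (0.41). It was lower in GL261-GSCs for Isg15 (-0.39), Enpp1 (-1.16), Egr1 (-1.41), Mki67 (-0.62), Top2a (-0.55), Id3 (-0.67), Tfcp2l1 (-1.68) and Spp1 (-1.76). With cells matched on total UMIs the difference no longer passed for Isg15 (adjusted p = 0.071) and Tfcp2l1 (adjusted p = 0.256 by edgeR), and the other 9 passed. Tfcp2l1 rested on 9 and 8 UMIs in Sox2-high and 8 and 16 UMIs in Sox2-zero cells of GL261. For Egr1 the GL261 libraries disagreed, with 164 CPM in Sox2-high and 58.0 CPM in Sox2-zero cells of replicate 1, but 21.2 and 29.1 CPM in replicate 2. Spp1 also had few UMIs in GL261, at 3.77 and 8.33 CPM in Sox2-high and 1.64 and 5.94 CPM in Sox2-zero cells.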

How the results depend on the processing

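The count of 217 genes was 46 with DESeq2 (7629 genes without an adjusted p), 409 with cells matched on total UMIs, 363 with at least 5 Sox2 UMIs, 460 with at least 12000 UMIs per cell, 138 without the deepest 5% of cells, 108 in cells low in cycle genes and 652 without thinning. Libraries 1 and 2 only gave 117, libraries 3 and 4 only 130, and leaving out 1 library gave 100 to 221, lowest without replicate 2 (100) and replicate 3 (107). Without the library block, edgeR called 0 genes for both comparisons (74 and 195 at an unadjusted p under 0.05), since pairing by library removes the differences between libraries; no other tool was run without it. The 414 genes of the difference from GL261 became 141 with DESeq2 (7029 without an adjusted p) and 129 to 478 with 1 library left out. The share of members was 26.5% in GL261-GSCs and 12.5% in GL261. Their difference in percentage points became 7.37 with Sox2 counted after thinning (the limit still 3), 19.2 at 12000 UMIs, and 12.7 to 16.1 with 1 library left out. The neighbour difference kept its direction at 9.07 to 11.8 with 1 library left out. Of 38 named genes called, 5 (Ctsl, Isg15, Slc30a4, Slc3a2 and Thbs2) kept their call and direction under every alternative but the fit without the block and DESeq2. DESeq2 ended 11 named calls, among them Ctsl, Isg15, Mt3, Pck2, Id3 and Lhfpl3, while Slc30a4, Slc3a2 and Thbs2 kept theirs. Matching ended 13 calls, and matching within cells low in cycle genes, chosen after seeing the data, ended 23. Counting Sox2 after thinning, with a limit of 2 UMIs in place of 3, called 280 genes, of which 81 were among the 217. It ended 15 named calls, among them Rsad2, Wnt4, Gdf15, Enpp1, Id3 and Msmo1. Another seed of the thinning called 234 genes, of which 161 were among the 217, and ended 4 named calls.

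Values that changed sign were, but for Rangap1, of genes that had not passed, the largest being Hopx, which has few UMIs; Malat1 passed after its change of sign in cells low in cycle genes and matched (adjusted p = 0.027 by edgeR). With matching, Fabp7 was 0.048, Mki67 -0.036, Olig1 0.080, Tfcp2l1 0.00065, Bbc3 0.069, Malat1 0.051, Cd68 0.050 and Flt1 0.034. With Sox2 counted after thinning and a limit of 2 UMIs in place of 3, Mki67 was -0.10, Olig1 0.069, Hopx -0.51, Rangap1 -0.024, Dll3 0.0089, Bbc3 0.034, Malat1 0.013, Cd68 0.039 and Flt1 0.051. At 12000 UMIs, Top2a was 0.019, Bbc3 0.031, Malat1 0.058 and Flt1 0.10. At 5 Sox2 UMIs, Top2a was 0.028 and Flt1 0.021. In cells low in cycle genes, which were chosen by such genes so that Top2a is not tested there, Top2a was 0.18 and Flt1 0.021, and matched as well, Top2a 0.0056, Dll3 0.21, Malat1 0.12 and Flt1 0.039. Without thinning, Top2a was 0.048 and Flt1 0.059, at mitochondrial UMIs under 5% 0.033 and 0.0035, and with another seed Flt1 was 0.091. With libraries 1 and 2 only, Pdgfra was -0.019 and Top2a 0.092, and with libraries 3 and 4 only, Mki67 was -0.048 and Flt1 0.0083. With 1 library left out, Pdgfra ranged from -0.00058 to 0.18, Mki67 from -0.021 to 0.090 and Top2a from -0.11 to 0.051. The cause of these changes was not tested.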
